A study of Arabidopsis thaliana with 12 samples.

Results

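Leaves were compared with roots of the same *Arabidopsis* plants that had germinated and grown aboard the International Space Station, over the 656 genes held by the tables used here, which give the authors' genes for spaceflight against ground control in either organ. The study states a larger number of such genes, and the others were not analysed here. Of the 656, 591 were listed for leaves alone, 48 for roots alone and 17 for both, and these are called the listed genes. The plants were wild type of the WS cultivar, harvested at 11 days into RNAlater from solid plates that stood under constant light in the Veggie growth unit, and the ground controls grew in a second Veggie unit in a chamber that replayed the station environment with a delay. Each condition had 3 plates, and the leaves and the roots of 3 pooled plants of a plate gave 1 leaf and 1 root library, so the 6 spaceflight libraries form 3 leaf and root pairs and the 6 ground control libraries another 3. The organ was taken from the sample titles, because another field of the labels names the same organ for every library of a condition and the extraction text speaks of root tips where the organ field says whole roots. Nothing in the labels gives a sowing or extraction batch, and the spread between plates is the only error that p-values here measure. Expression is given as FPKM, a read level scaled to gene length and to the size of the library, which can be set side by side between genes. Organ bias is the mean over plates of leaf minus root on the log2(FPKM + 1) scale, so that a positive value means more transcript in the leaf, and it understates the ratio of genes with few FPKM.

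Leaves carry out photosynthesis and hold much of the defence against airborne pathogens, and their transcripts include the light-harvesting proteins, the salicylic acid pathway and the defensins. Roots take up water, nitrate and ammonium, and their transcripts include peroxidases and glycine-rich proteins of the wall, beta-glucosidases that release coumarins and enzymes that detoxify compounds of the soil. Roots are also the organ in which low oxygen is met most often, and the transcripts of fermentation and of oxygen sensing are usually held at a higher level there than in leaves. In whole organs, fewer cells of a type and less RNA per cell cannot be told apart.

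The titles fitted the few tissue markers among the listed genes. Of 23 leaf markers, 5 were listed, and the sum of their FPKM was 7148, 15886 and 15183 in the spaceflight leaves of plates 1, 2 and 3 against 246, 387 and 167 in the roots of the same plates. The corresponding sums were 15196 to 19577 in ground control leaves and 116 to 124 in ground control roots, so spaceflight roots held more of these photosynthesis transcripts than ground control roots, without overlap. Of the 5 markers, 4 were listed for roots, which is how they came to be measured here, and the part that leaf tissue in a root library could have in other values was not tested. Of 21 root markers, 2 were listed, BGLU21 and the tonoplast aquaporin TIP2-2, with a sum of 738 to 953 in spaceflight roots and 43.0 to 52.8 in spaceflight leaves. On the ground the sum was 1078 to 1308 in roots and 67.2 to 139 in leaves, so both organs held less of it in spaceflight, without overlap. BGLU21 held few FPKM in the leaves of either condition, so the leaf sums were mainly those of TIP2-2. None of 22 root hair wall genes was listed. The median of log2(FPKM + 1) over the 656 genes was 3.64, 3.77 and 4.09 in the spaceflight leaves and 3.87 to 4.09 in the spaceflight roots, against 2.95 to 3.20 in the ground control leaves and 3.87 to 4.07 in the ground control roots. The leaf of spaceflight plate 3 stood apart as the only leaf library whose median lay above that of its own root, and the main counts are given without that plate as well. Depth is unknown because the tables used give no read counts, and no counting interval can be set on a level.

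In spaceflight plants, 223 of the 656 genes (34% of those tested) were leaf-biased and 222 (33.8%) were root-biased, where a call needed a difference of at least 2-fold with an adjusted p below 0.05. The other 211 (32.2%) met neither call. The difference ran from -8.73 to 8.66 with a median of -0.21 and quartiles of -1.68 and 1.67, and it reached 5 or more, toward leaf in 22 genes and toward root in 19. Every gene past the 2-fold threshold was also past the adjusted p, so the fold threshold set the calls. All 3 spaceflight leaf libraries lay above all 3 spaceflight root libraries in 258 genes (39.3%), and all root libraries lay above all leaf libraries in 270 (41.2%). The leaf was at least 2-fold above its own root in each of the 3 plates in 180 genes and the root at least 2-fold above its own leaf in 190, and the plates differed in sign in 107 genes. Among the ground control plants, 160 genes (24.4%) were leaf-biased and 296 (45.1%) root-biased, with a median of -0.61. The genes had been chosen by the authors for a spaceflight effect in 1 organ in these libraries, mostly in the leaf, so these shares describe the list and not the transcriptome. The 591 genes listed for leaves alone had 189 leaf-biased and 201 root-biased members in spaceflight and a median of -0.25, the 48 listed for roots alone had 25 and 18 with a median of 2.12, and the 17 listed for both had 9 and 3 with a median of 1.11.

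**Figure D1:**
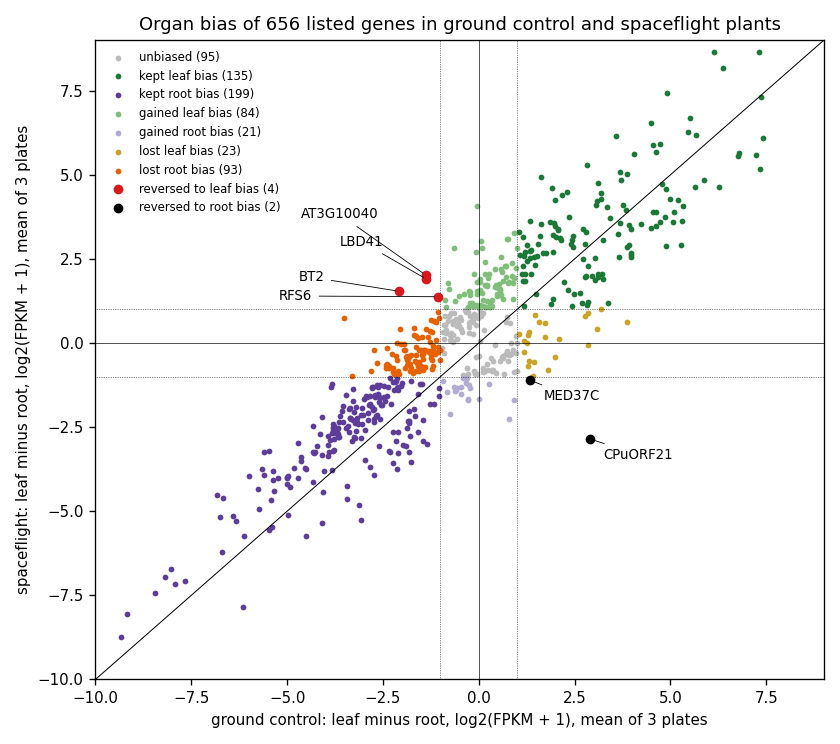
Leaf minus root on the log2(FPKM + 1) scale, mean of 3 plates, of each of the 656 listed genes in ground control plants (horizontal axis) and in spaceflight plants (vertical axis), coloured by class, with dotted lines at a 2-fold difference and a diagonal where both conditions are equal. Most genes lie in the lower left or upper right, where the 199 genes that kept a root bias and the 135 that kept a leaf bias are, and the 6 reversed genes are named.

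The strongest leaf bias in spaceflight plants was that of plant defensins. PDF1.2C, an antifungal peptide of the jasmonate and ethylene response, was at 827, 230 and 1291 FPKM in the leaves and at 0.84, 0.35 and 0.51 in the roots of the same plates. Every leaf library was far above every root library, and the mean difference was 8.66 with an SD of 1.17 over the 3 plates (limma's SE, moderated over all genes and both conditions, was 0.34). PDF1.2A, its neighbour on chromosome 5, was at 623, 382 and 1001 FPKM in leaves and at 0.47, 1.57 and 0 in roots, a difference of 8.64. Both genes rank plates 1 and 3 above plate 2 in the leaf, but they are near copies of each other and the estimation of FPKM divides shared reads between such genes, so their separate levels are uncertain. PCC1, which answers to pathogens and to the clock, was at 435, 272 and 336 FPKM in leaves and at 0.70, 0 and 0 in roots. The difference of 8.16 again left no overlap between the organs. PR1, the classical marker of the salicylic acid response, was at 119, 118 and 604 FPKM in leaves and at 0.20, 0.09 and 0.27 in roots, with plate 3 high in the leaf and a difference of 7.43. AT5G42530, the most abundant of these transcripts, was at 3733, 3393 and 4672 FPKM in leaves and at 21.6, 31.8 and 18.8 in roots, a difference of 7.32. LURP1, required for basal defence against an oomycete, was at 199, 185 and 274 FPKM in leaves and at 1.1, 1.73 and 1.15 in roots (6.55). The remaining genes of the leading 8 were AT5G24210, at 120 ± 30.1 FPKM in leaves and 0.163 ± 0.112 in roots (SD, n = 3; 6.68), and AT1G72910, of the TIR domain family of immune receptors, at 175 ± 12.6 and 1.27 ± 0.0808 (6.28). Roles in defence are known for most of these 8, and all 8 were leaf-biased in ground control plants as well.

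The strongest root bias was that of ATGRP9, a glycine-rich protein, with 1012, 1102 and 1119 FPKM in spaceflight roots and 1.62, 2.15 and 0.99 in the leaves of the same plates, a difference of -8.73. BGLU21, a root beta-glucosidase that releases scopoletin, was at 535, 521 and 751 FPKM in roots and at 0.82, 1.02 and 2.12 in leaves (-8.04). The roots of all 3 plates were alike for both genes, and no leaf library came near them. AT4G33720, of the CAP family to which PR1 also belongs, was at 225, 290 and 301 FPKM in roots and at 0.26, 0.20 and 0.08 in leaves (-7.85), so that 2 relatives of this family, PR1 and AT4G33720, had opposite organ bias in the same plants. PER45, a class III peroxidase, was at 519, 416 and 441 FPKM in roots and at 1.04, 1.05 and 3.46 in leaves (-7.43). OSM34, an osmotin-like protein, was at 478, 640 and 425 FPKM in roots and at 0.68, 1.01 and 18.9 in leaves (-6.96), with the leaf of plate 3 far above the other leaves and still far below any root. The leading 8 were completed by AT5G38020, of the SABATH methyltransferase family, at 365 ± 57.5 FPKM in roots and 1.69 ± 1.24 in leaves (-7.17), by the arabinogalactan protein AGP3 (-7.08) and by AT4G22212, a defensin-like protein, at 345 ± 58.1 and 2.24 ± 0.240 (-6.73). All 8 were root-biased on the ground too. The root bias of BGLU21 narrowed in spaceflight by 1.14 and that of AT4G22212 by 1.3, and that of AT4G33720 widened, with a change of -1.68. With library medians set equal the changes of BGLU21 (0.43) and AT4G22212 (0.59) were not called.

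Each gene was then placed in a class by its call in spaceflight and its call in ground control plants. A leaf bias was kept by 135 genes (20.6%) and a root bias by 199 (30.3%). A leaf bias was lost by 23 genes (3.51%) and a root bias by 93 (14.2%), while 84 genes (12.8%) gained a leaf bias and 21 (3.2%) gained a root bias. The bias was reversed to leaf in 4 genes (0.61%) and to root in 2 (0.305%), and 95 (14.5%) were biased in neither condition. These classes come from 2 separate calls, and a call in 1 condition and none in the other is not by itself a difference. The difference between the conditions was therefore tested gene by gene, with the same thresholds, and the bias changed toward leaf in 290 genes (44.2%) and toward root in 100 (15.2%). The change of bias passed that test in 64 of the 84 genes that gained a leaf bias, 66 of the 93 that lost a root bias, 19 of the 23 that lost a leaf bias, 9 of the 21 that gained a root bias and all 6 that reversed. It also passed in 84 of the 135 genes that kept a leaf bias, of which 50 widened and 34 narrowed, and in 98 of the 199 that kept a root bias, of which 17 widened and 81 narrowed.

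The leaf libraries carried most of these shifts, as the choice of the genes makes likely. Spaceflight moved the leaf further than the root in 93 of 93 genes that lost a root bias, with medians of 1.35 in the leaf and 0.09 in the root, and in 83 of 84 that gained a leaf bias, with medians of 1.56 and 0.13. It did so in 22 of 23 genes that lost a leaf bias (-1.93 and -0.21) and in 21 of 21 that gained a root bias (-1.03 and -0.12). The balance between the directions depended on how libraries were scaled. The medians used for scaling are those of the listed genes, most of them chosen for a spaceflight effect in the leaf. Setting the medians equal may therefore also remove part of that effect, which was not tested. With the medians of the 12 libraries over the listed genes set equal, which raises the ground control difference of every gene by 0.88 and the spaceflight difference by 0.17 and so lowers the change by 0.71, the bias changed toward leaf in 80 genes and toward root in 175. With all libraries as deposited, 74.4% of the changes were toward leaf, and 31.4% with medians equal. The spaceflight calls themselves moved little, to 235 leaf-biased and 211 root-biased genes. Without spaceflight plate 3, 203 genes were leaf-biased and 235 root-biased, and the bias changed toward leaf in 194 and toward root in 93.

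**Figure D2:**
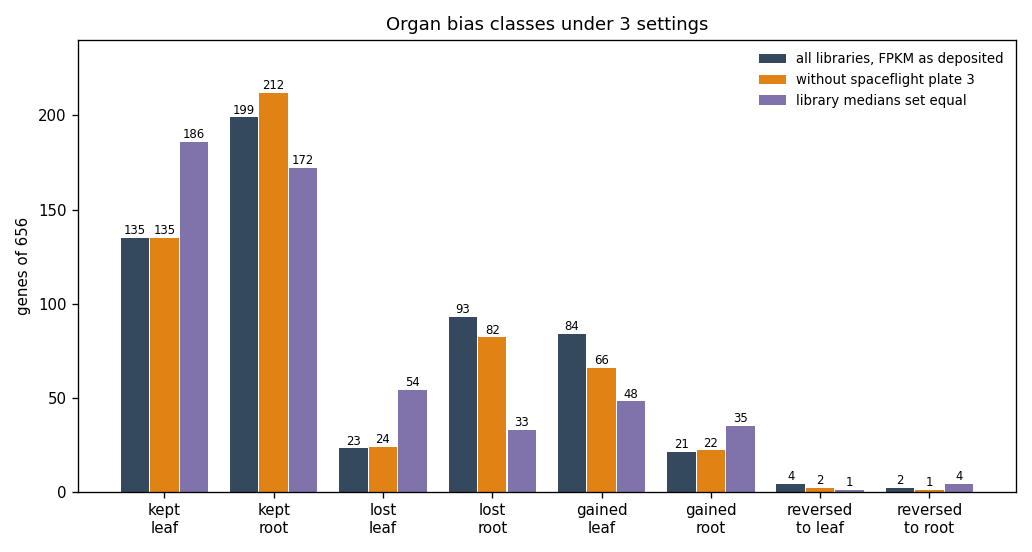
Number of the 656 listed genes in each class of organ bias (vertical axis, bars from 0) with all libraries as deposited, without spaceflight plate 3 and with library medians set equal. Setting medians equal moves the kept leaf class from 135 to 186 genes and the lost root class from 93 to 33, while leaving out plate 3 moves the gained leaf class from 84 to 66.

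The genes that reversed their bias were 6, of which 4 were higher in the leaf in spaceflight and in the root on the ground. BT2 (AT3G48360, TAIR10.1 chr3:17907767-17910738), a BTB scaffold protein that answers to sugar and nitrogen, was at 58.9, 128 and 215 FPKM in spaceflight leaves and at 32.0, 60.8 and 32.3 in the roots of the same plates. The leaf was above its own root in each plate, although the leaf of plate 1 lay just under the root of plate 2. In ground control plants BT2 was at 6.43, 6.89 and 2.29 FPKM in leaves and at 25.2, 27.4 and 18.9 in roots, with every root above every leaf. The bias of BT2 was 1.54 in spaceflight, with an SD of 1.01 over the 3 plates (moderated SE 0.32, adjusted p = 0.00044 in limma), and -2.09 on the ground, a change of 3.63. Without spaceflight plate 3 the spaceflight bias of BT2 was no longer called.

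Both AT3G10040 and LBD41 belong to the core response to low oxygen. AT3G10040 (chr3:3096345-3098417), the trihelix factor that attenuates the hypoxia response, was at 24.7, 32.4 and 48.0 FPKM in spaceflight leaves and at 7.25, 8.10 and 7.35 in spaceflight roots. On the ground it was at 1.91, 4.21 and 2.65 FPKM in leaves and at 6.89, 9.65 and 10.8 in roots. The organs did not overlap in either condition, and the bias went from -1.39 to 2.02. LBD41 (chr3:536500-538126), a LOB domain factor, was at 101, 133 and 204 FPKM in spaceflight leaves and at 33.1, 46.4 and 32.4 in spaceflight roots, against 6.29, 18.9 and 11.5 in ground control leaves and 25.2, 33.1 and 33.8 in ground control roots. The roots of LBD41 and AT3G10040 held similar levels in both conditions, and the leaf went from below to above the root, with a change of 3.27 in LBD41 and 3.41 in AT3G10040. With library medians equal both genes were unbiased on the ground and so counted as gained, with the change still past the test.

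RFS6 (chr5:6833564-6836862), a raffinose synthase known as the dark-inducible gene DIN10, was at 119, 338 and 467 FPKM in spaceflight leaves and at 108, 117 and 83.9 in spaceflight roots. Plates 2 and 3 gave a leaf well above its root and plate 1 a leaf only slightly above, so the bias of 1.38 rested on those plates and was lost without plate 3. On the ground the bias of RFS6 was -1.08, with 45.9, 63.5 and 53.3 FPKM in leaves and 105, 122 and 117 in roots, and another annotated gene overlaps its exons on the other strand. With library medians equal, or without ground control plate 1, RFS6 was not called on the ground and counted as gained. MED37C (chr3:3991117-3993886), a cytosolic HSP70 chaperone, was reversed the other way, at 29.2, 39.0 and 26.1 FPKM in spaceflight leaves and at 73.6, 72.8 and 58.8 in spaceflight roots. Every spaceflight root lay above every spaceflight leaf, while on the ground the leaves, at 386, 189 and 250 FPKM, lay above the roots, at 100.4, 91.9 and 119. The bias of MED37C was -1.11 in spaceflight and 1.34 on the ground, and with library medians equal it was counted as a lost leaf bias. CPuORF21, a conserved upstream reading frame, was listed at 0.05 FPKM in all spaceflight leaves and all ground control roots, and at 0.05, 27.4 and 13.6 in spaceflight roots and 0.05, 15.9 and 26.9 in ground control leaves. Plate 1 of each condition was at the floor in both organs, and reads of such a frame may be shared with the gene that carries it, so no fold is given and its differences depend on the pseudocount. CPuORF21 left the reversed class without spaceflight plate 2 or 3 or without ground control plate 3.

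**Figure D3:**
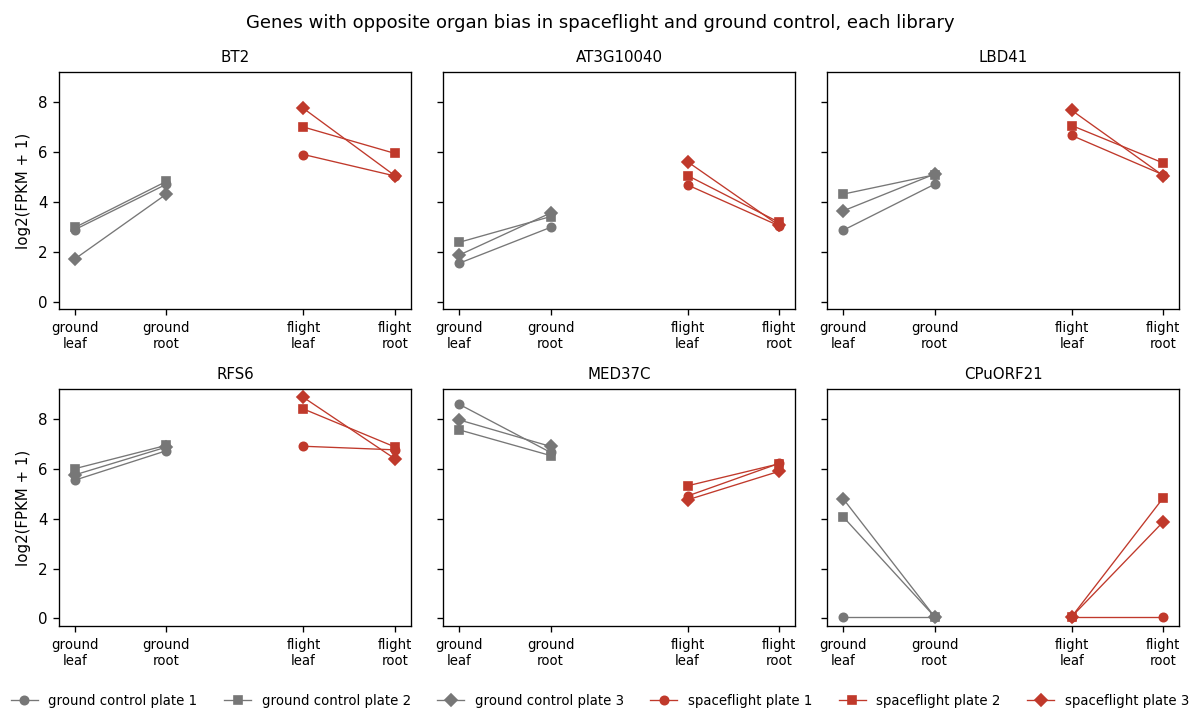
Level of the 6 reversed genes on the log2(FPKM + 1) scale (vertical axis) in the leaf and root of each ground control plate (grey) and each spaceflight plate (red), with a line joining the organs of 1 plate. The lines fall from leaf to root in spaceflight and rise on the ground for BT2, AT3G10040, LBD41 and RFS6, and do the opposite for MED37C, while plate 1 of CPuORF21 stays at 0.05 FPKM throughout.

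Of 34 heat shock chaperones and factors in a fixed list, 27 were among the listed genes, all of them for leaves alone. In spaceflight plants 1 of the 27 was leaf-biased and 7 were root-biased, with a median of -0.83 beside -0.21 over all 656 genes. The shares of all 656 genes were 34% and 33.8%, so the root-biased count was not above its share. Without spaceflight plate 1 the root-biased were 13. With all plates, every spaceflight root library lay above every spaceflight leaf library in 20 of 27, beside 41.2% of all 656 genes. On the ground 11 were leaf-biased and 1 root-biased, beside 24.4% and 45.1% of all 656 genes, with a median of 0.92. With library medians equal 20 were leaf-biased on the ground. The change was toward root in 20 of 27, beside 15.2% of all 656 genes, and toward leaf in 1, HSFA6B. With library medians equal it was toward root in 26 and toward leaf in none. The list held 9 genes that lost a leaf bias and 5 that gained a root bias. HSFA2, the heat shock factor that sustains the response, was at 1.44, 1.47 and 1.15 FPKM in spaceflight leaves and at 1.61, 1.35 and 1.36 in spaceflight roots. The organs overlapped in spaceflight, whereas on the ground the leaves held 44.0, 21.4 and 19.5 FPKM and the roots 2.27, 2.60 and 3.62, so that a bias of 2.85 became one of -0.05. HSP17.8, a small cytosolic chaperone, was at 5.88, 4.66 and 4.34 FPKM in spaceflight leaves and at 3.16, 2.17 and 3.41 in spaceflight roots. The difference of 0.61 was not called, although every spaceflight leaf lay above every spaceflight root. On the ground the difference was 3.87 and leaves held 119, 65.5 and 44.0 FPKM. HSP17.4B went from 3.1 to 0.41 and the peptidyl-prolyl isomerase FKBP65 from 1.82 to -0.79 in the same way.

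A root bias was gained by HSP17.6B, HSP23.5, HOP3, BAG6 and CLPB4. HSP17.6B, a small chaperone, was at 26.4, 19.9 and 25 FPKM in spaceflight roots and at 5.71, 3.03 and 4.03 in spaceflight leaves, a bias of -2.26. On the ground the leaves of HSP17.6B, at 50.7, 19.6 and 36.3 FPKM, overlapped the roots, at 19.1, 20.8 and 16.9. HSP23.5, a mitochondrial small chaperone, was at 15.7, 16.9 and 18.1 FPKM in spaceflight roots and at 4.95, 5.17 and 3.60 in spaceflight leaves, a bias of -1.69 where the ground control bias was 0.92. With library medians equal, or without ground control plate 2, both genes were leaf-biased on the ground and counted as reversed, as was HSP23.5 without ground control plate 3. HOP3, a co-chaperone of HSP70 and HSP90, was at 45.0 ± 2.25 FPKM in roots and 13.5 ± 0.835 in leaves (-1.66). HSP18.5 kept a leaf bias, at 105 ± 25.9 FPKM in leaves and 36.6 ± 9.82 in roots (1.5), where the ground control bias was 2.63. HSP90-2 and HSP90-3 are near copies of each other, and their separate levels are uncertain.

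The sequence just before the annotated start is shown for HSFA2, which lost its leaf bias, and for BAG6, a co-chaperone that gained a root bias at 7.69, 7.89 and 8.03 FPKM in spaceflight roots and 2.81, 2.16 and 2.26 in spaceflight leaves (-1.38). Both are the 120 bases before the start in TAIR10.1, chr2:11135504-11135623 and chr2:18986013-18986132, each on the plus strand and written from 5′ to 3′, with capitals on the heat shock element core GAANNTTC.
HSFA2: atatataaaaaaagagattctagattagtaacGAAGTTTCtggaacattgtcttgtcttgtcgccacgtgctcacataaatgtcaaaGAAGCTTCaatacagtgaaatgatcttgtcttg
BAG6: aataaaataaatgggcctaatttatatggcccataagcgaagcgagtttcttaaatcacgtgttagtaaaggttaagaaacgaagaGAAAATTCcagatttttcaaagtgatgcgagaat
The core occurs at 2 places before HSFA2 and at 1 before BAG6, and each window also holds 1 G-box, CACGTG, left in lower case. Searched on both strands from 250 bases before to 50 after the start, the core was found in 11.6% of 27444 protein-coding genes, in 16.8% of the 648 listed genes with such a window, in 6 of the 27 heat shock genes (22.2%) and in 6 of the 23 genes that lost a leaf bias (26.1%). This motif was chosen after the values were seen. The G-box was found in 7.68% of all genes and in 9.41% of the listed genes. It was in 6 of 23 genes that lost a leaf bias (26.1%) and in 7 of 133 that kept one (5.26%). It was also in 4 of 21 genes that gained a root bias (19.0%) and in 11 of 95 unbiased genes (11.6%), so the class shares rest on small counts. A match is a run of letters in a window and does not mark a bound site.

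Of 24 genes of the low oxygen response, 15 were listed, and in spaceflight 5 of them were leaf-biased and 3 root-biased. The shares of all 656 genes were 34% and 33.8%, and the leaf-biased count was close to its share. On the ground none was leaf-biased and 10 were root-biased, beside 24.4% and 45.1% of all 656 genes. With library medians equal the ground counts were 1 and 6. The median of the list was 0.75 in spaceflight and -1.60 on the ground. The change was toward leaf in 13 of 15, beside 44.2% of all 656 genes, with the other 2 at 0.83 and 0.93. It was called toward leaf in 9 without spaceflight plate 3 and in 8 with library medians equal. Spaceflight moved the leaf level of the list by a median of 2.17 and the root level by 0.13. AT4G10265 and AT4G10270, wound-responsive proteins that neighbour each other on chromosome 4 (chr4:6373008-6373667 and chr4:6374734-6375210), both gained a leaf bias. AT4G10265 was at 71.7, 96.3 and 132 FPKM in spaceflight leaves and at 4.47, 5.52 and 4.65 in spaceflight roots. The difference of 4.06 stood against -0.04 on the ground, where leaves held 2.46, 4.12 and 5.01 FPKM and roots 2.23, 6.26 and 3.93. AT4G10270 was at 99.9, 108 and 127 FPKM in spaceflight leaves and at 19.4, 11.7 and 14.4 in spaceflight roots, a bias of 2.82 with no overlap. On the ground AT4G10270 was at 4.24, 20.5 and 5.99 FPKM in leaves and at 9.96, 13.3 and 18.3 in roots, and without ground control plate 2, whose leaf was high, it was root-biased there and counted as reversed. An annotated gene overlaps AT4G10270 on the other strand.

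Other genes of the low oxygen list lost or narrowed a root bias. S-ACP-DES6, a stearoyl-acyl carrier protein desaturase, was at 50.7, 26.5 and 57.0 FPKM in spaceflight leaves and at 24.8, 37.1 and 16.6 in spaceflight roots, with the organs overlapping and plate 2 in the opposite order to the others. On the ground its roots, at 22, 33 and 40.9 FPKM, lay far above its leaves, at 1.09, 1.85 and 2.72, and the change of 4.26 was the largest toward leaf of all 656 genes. PCO1, an oxygen-sensing cysteine oxidase, was at 13.1, 16.3 and 26.4 FPKM in spaceflight leaves and at 22.9, 20.3 and 18.7 in spaceflight roots (-0.19), where the ground control bias was -2.73. AHB1, a phytoglobin that scavenges nitric oxide, went from -2.26 to -0.33 and the fermentation enzyme ADH1 from -1.60 to -0.59. PDC1, the pyruvate decarboxylase of the same pathway, kept a root bias of -2.39, at 13.9 ± 3.21 FPKM in roots and 1.97 ± 1.3 in leaves. AT1G19530 kept the strongest root bias of the list (-4.18). ARD1, an acireductone dioxygenase of methionine salvage, gained a leaf bias of 3.26, which counted as kept with library medians equal, with the smaller pseudocount or without ground control plate 2.

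All 26 genes of the list of dark and sugar starvation were listed, and 12 were leaf-biased and 1 root-biased in spaceflight against 5 and 11 on the ground. The shares of all 656 genes were 34% and 33.8% in spaceflight and 24.4% and 45.1% on the ground. Both ground counts were thus near their shares. This list, as the others, was chosen with earlier results of these data known. The median was 0.80 in spaceflight and -0.83 on the ground. The change was toward leaf in 23 of 26, beside 44.2% of all 656 genes, with the other 3 between 0.35 and 0.91. Without spaceflight plate 3 it was toward leaf in 14 and 9 genes were leaf-biased in spaceflight, and with library medians equal the change was toward leaf in 8. A leaf bias was kept by STR15, the senescence gene SEN1, at 86.0 ± 64.3 FPKM in leaves and 2.84 ± 0.997 in roots (4.11), by the kelch F-box protein SKIP20 (3.29), by AT1G80440, another F-box protein (3.14), and by the xylosidase BXL1 (2.70). The leaf levels of these 4 spread widely between plates, yet each kept every leaf above every root. AT1G80440 counted as gained without ground control plate 2 or 3, and BXL1 without ground control plate 3. AT3G15450, an aluminium-induced family protein, gained a leaf bias of 1.77, at 573, 1041 and 1345 FPKM in spaceflight leaves and 257, 321 and 242 in spaceflight roots. The leaf of plate 1 was the lowest and still above every root. BT5, a relative of BT2, gained a leaf bias of 1.81, the trehalose phosphate synthase-like TPS8 one of 1.69 and the bZIP factor BZIP1 one of 1.94. The SD of the bias over the 3 spaceflight plates was 0.62 in BT5, 1.44 in TPS8 and 0.80 in BZIP1. A root bias of the ground was no longer called in spaceflight for 8 genes, among them the asparagine synthetase ASN1 (-2.22 and -0.91), the glutamate dehydrogenase GDH2 (-1.84 and -0.49) and the proline oxidase POX1 (-1.17 and 0.65). TPS10 kept a root bias (-1.13).

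Of 19 genes of nitrogen uptake and assimilation, 15 were listed, with 5 leaf-biased and 4 root-biased in spaceflight and 2 and 6 on the ground. Over all 656 genes these shares were 34% and 33.8% in spaceflight and 24.4% and 45.1% on the ground, and the leaf-biased count in spaceflight was close to its share. The change was toward leaf in 11 and toward root in none, beside 44.2% and 15.2% of all 656 genes. However, it was toward leaf in 8 without spaceflight plate 3, and with library medians equal it was toward leaf in 1 and toward root in 2. NPF6.4, a nitrate transporter, kept the strongest leaf bias of the list at 30.2 ± 2.91 FPKM in leaves and 1.12 ± 0.453 in roots (3.90). NRT2.5, the high-affinity nitrate transporter of starved plants, was at 12.8 ± 4.90 FPKM in spaceflight leaves and 0.0700 ± 0.0889 in spaceflight roots, a bias of 3.63 against 1.34 on the ground. AMT1-1, an ammonium transporter, gained a leaf bias at 211 ± 24.2 FPKM in leaves and 42.5 ± 3.23 in roots (2.28), though with library medians equal the bias counted as kept and the change was not called. Its relative AMT1-2 gained a root bias (-1.08), for which the change of -0.75 was not called. The glutamine synthetase GLN1-4 gained a leaf bias of 1.57. HRS1, a repressor that joins nitrate and phosphate signals in the root, kept a root bias of -4.03. The nitrate reductase NIA1 was root-biased on the ground (-1.77) and not in spaceflight (-0.35), with 172 ± 53.5 FPKM in leaves and 211 ± 24.3 in roots.

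The list of salicylic acid and systemic resistance had 20 of 25 genes listed, and its median in spaceflight was the highest of the lists after that of the leaf markers. In spaceflight 13 were leaf-biased and 4 root-biased, with a median of 2.38, against 9 and 6 with a median of 0.41 on the ground. The shares of all 656 genes were 34% and 33.8% in spaceflight and 24.4% and 45.1% on the ground. The leaf-biased count was thus above its share in both conditions. The change was toward leaf in 18 of 20, beside 44.2% of all 656 genes, with the other 2 at 0.08 and 0.84. With library medians equal it was toward leaf in 10. Besides PCC1, PR1 and LURP1, a leaf bias was kept by ACD6, a regulator of cell death, at 66.9 ± 10.5 FPKM in leaves and 0.147 ± 0.0777 in roots (5.88), by the thaumatin-like PR5 (5.08) and by WRKY70, which acts downstream of salicylic acid, at 236 ± 60.4 and 7.60 ± 0.304 (4.76). FMO1, the monooxygenase that makes N-hydroxypipecolic acid, was at 6.04, 4.75 and 13.1 FPKM in spaceflight leaves and at 0.14, 0.33 and 0.37 in spaceflight roots. In ground control plants FMO1 did not pass 0.30 FPKM in any library, so its leaf bias of 2.70 was seen in spaceflight and not on the ground (-0.06). WRKY54, a relative of WRKY70, gained a leaf bias of 2.06 and the NPR1-binding NIMIN-2 one of 1.93, and that of WRKY54 counted as kept with library medians equal. A root bias was kept by genes of synthesis, transport and conjugation: the isochorismate synthase ICS2 (-3.76), the glucosyltransferase UGT76B1, at 34.2 ± 1.71 FPKM in roots and 6.38 ± 4.88 in leaves (-2.46), the salicylic acid exporter of plastids EDS5 (-1.59) and ALD1, which makes the precursor of pipecolic acid (-1.3). CYP71B15, the last enzyme of camalexin synthesis and not in this list, lost its root bias, at 9.38, 11.4 and 30.5 FPKM in spaceflight leaves and 9.99, 9.70 and 13.1 in spaceflight roots, with the leaf of plate 3 above the other 5 libraries.

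Of 29 clock genes, 13 were listed. In spaceflight 3 were leaf-biased and 1 root-biased, against 4 and 6 on the ground. The medians were close, 0.25 and 0.31, and the change was toward leaf in 4 and toward root in 1, or in 1 and 6 with library medians equal. Over all 656 genes, 34% were leaf-biased and 33.8% root-biased in spaceflight, and the change was toward leaf in 44.2% and toward root in 15.2%. On the ground the shares were 24.4% and 45.1%, and the root-biased count of the clock list was close to its share there. The Reveille factor RVE1 kept a leaf bias of 1.83, at 31.2 ± 7.83 FPKM in leaves and 8.07 ± 2.26 in roots, and the Dof factor CDF1 one of 1.15, which was not called without spaceflight plate 3. RVE1 was not called on the ground without ground control plate 1. GI, which holds the clock and flowering together, kept a root bias of -1.35, at 17.9 ± 2.36 FPKM in roots and 6.47 ± 1.28 in leaves, but it was not called on the ground with library medians equal or without ground control plate 1 or 2. A root bias of the ground was lost by APRR5, BOA, RVE2, JMJD5 and AT4G33980. JMJD5, a jumonji domain protein of the clock, stood at 31.9 ± 17.9 FPKM in leaves and 29.4 ± 1.18 in roots, a bias of -0.02 against -1.95 on the ground. RVE2 was at 151 ± 12.7 FPKM in leaves and 95.4 ± 25.5 in roots, a difference of 0.69 under the 2-fold threshold, although every leaf lay above every root. COR27, a light and cold regulator, gained a leaf bias, at 16.6, 8.34 and 6.92 FPKM in spaceflight leaves and 2.42, 3.42 and 3.28 in spaceflight roots (1.44), a bias not called without plate 1. Its change of 0.97 missed the test (adjusted p = 0.0535).

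Clock genes are those in which the evening element is best known, and the 120 bases before the start are shown for BOA, which lost a root bias. BOA, a MYB-like factor of the clock, was at 11.5, 9.01 and 11.4 FPKM in spaceflight leaves and at 16.7, 15.6 and 16.2 in spaceflight roots (-0.57, against -1.57 on the ground). The window of BOA is chr5:24003768-24003887 on the plus strand in TAIR10.1, from 5′ to 3′, with capitals on the reverse complement of the evening element AAAATATCT.
BOA: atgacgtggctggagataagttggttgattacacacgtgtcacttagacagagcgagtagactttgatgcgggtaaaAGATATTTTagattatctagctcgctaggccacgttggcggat
BOA holds the element at 1 place. The element was found in 6 of the 13 clock genes (46.2%), in 6.02% of the listed genes and in 2.82% of all protein-coding genes, in windows from 250 bases before to 50 after the start on both strands. The W-box, TTGACC or TTGACT, which WRKY factors bind, was found in 32.4% of all genes and 38.4% of the listed genes. It was in 44 of 92 genes that lost a root bias (47.8%) and in 5 of 23 that lost a leaf bias (21.7%). The share was 41.3% in genes that kept a root bias and 36.1% in those that kept a leaf bias.

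**Figure D4:**
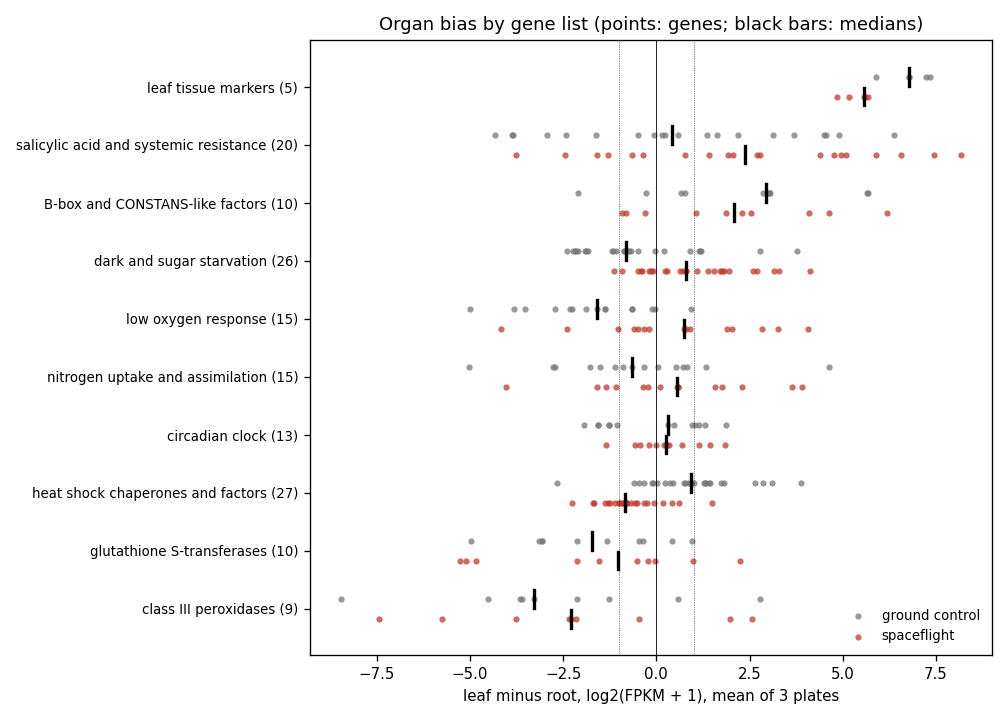
Leaf minus root on the log2(FPKM + 1) scale, mean of 3 plates (horizontal axis), of the listed genes of 10 gene lists in ground control (grey) and spaceflight (red), with the number of listed genes in brackets, a black bar at each median and dotted lines at a 2-fold difference. The median of the heat shock list lies at 0.92 on the ground and -0.83 in spaceflight, and that of the low oxygen list at -1.60 and 0.75.

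B-box and CONSTANS-like factors, zinc finger proteins of light signalling, were all listed. In spaceflight 7 of 10 were leaf-biased and none root-biased, beside 34% and 33.8% of all 656 genes. COL6 had the strongest bias of the list at 168 ± 77.9 FPKM in leaves and 1.21 ± 0.848 in roots (6.19), followed by COL16 at 117 ± 20.9 and 4.02 ± 2.27 (4.63) and COL8 at 22.6 ± 11.3 and 0.257 ± 0.170 (4.09). The change was toward leaf in 3 and toward root in 4, beside 44.2% and 15.2% of all 656 genes. With library medians equal it was toward leaf in none and toward root in 6. The leaf markers of photosynthesis were all leaf-biased in spaceflight and all 5 changed toward root, or 4 without spaceflight plate 1 or 2. LHCB4.2 and LHCB2.2, antenna proteins of photosystem II, were at 2060 ± 745 and 1291 ± 631 FPKM in spaceflight leaves and at 39.6 ± 16.6 and 34 ± 16 in spaceflight roots. The photosystem I subunit PSAD2 was at 1409 ± 459 and 29.0 ± 11.7 (5.56, against 6.77 on the ground). Without ground control plate 1 or 2 the change of LHCB4.2 was not called. The change of the marker GLK1 was not called with the smaller pseudocount or without ground control plate 1 or 3.

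The detoxification families are given beside the 34% leaf-biased and 33.8% root-biased of all 656 genes. Of 10 listed glutathione S-transferases, 5 were root-biased and 1 leaf-biased. GSTU24 was at 289 ± 38.9 FPKM in roots and 6.45 ± 0.396 in leaves (-5.27), GSTU25 at 40.2 ± 9.83 and 0.180 ± 0.0964 (-5.10) and GSTU1 at 104 ± 11.8 and 2.69 ± 0.115 (-4.82). The first pair are near copies that lie close together, so their separate levels are uncertain, whereas GSTF6, a phi class enzyme of defence, had the opposite bias at 40.9 ± 6.10 FPKM in roots and 206 ± 83.6 in leaves (2.24). Of 11 UDP-glycosyltransferases, 5 were root-biased and 2 leaf-biased, led by UGT71B7 toward leaf (3.57) and UGT73B4 toward root (-3.07). UGT74E2, which conjugates indole-butyric acid, lost its leaf bias of the ground, at 1.86, 1.80 and 1.55 FPKM in spaceflight leaves and 1.27, 3.17 and 4.14 in spaceflight roots, with the organs overlapping. Of 14 cytochromes P450, 6 were root-biased and 4 leaf-biased. CYP716A2, a triterpene oxidase, was listed at 0 in every leaf library of both conditions and at 8.43 ± 0.759 FPKM in spaceflight roots, and CYP72A8 was leaf-biased at 42.2 ± 13.9 against 4.16 ± 1.55 FPKM (3.06). Of 9 class III peroxidases, which build and loosen walls, 6 were root-biased and 2 leaf-biased, with PER59 at 63.2 ± 17.7 FPKM in roots and 0.180 ± 0.156 in leaves (-5.74) and PER62 at 1.45 ± 0.704 and 14.1 ± 7.5 (2.56).

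The transcription factor families, each with few listed genes, are given beside the shares of all 656 genes. Those were 34% leaf-biased and 33.8% root-biased in spaceflight and 24.4% and 45.1% on the ground. Among the families, 4 of 9 NAC factors were leaf-biased and 4 root-biased in spaceflight, where on the ground none was leaf-biased and 5 were root-biased. Without spaceflight plate 3 only 2 were leaf-biased in spaceflight, and with library medians equal 4 were leaf-biased on the ground. The 4 that gained a leaf bias were NAC055, at 19.4 ± 12.8 FPKM in leaves and 1.03 ± 0.375 in roots (3.09), NAC029, a factor of leaf senescence, at 34.9 ± 21.5 and 4.66 ± 0.547 (2.42), ATNAC2 (1.64) and NAC081 (1.07). The change was called in NAC055 and NAC029, whose bias counted as kept with library medians equal, and not in ATNAC2 and NAC081. The strongest root bias among NAC factors was that of anac047 (-2.52). Of 6 WRKY factors, 3 were leaf-biased and none root-biased, with WRKY22 at 33.6 ± 4.01 FPKM in leaves and 1.85 ± 0.442 in roots (3.61) beside WRKY70 and WRKY54. The 11 ERF and DREB factors were divided, 5 to each organ, with TEM1, a repressor of flowering, at 213 ± 41.9 FPKM in leaves and 19.1 ± 2.84 in roots (3.40) and ERF034 at 78.6 ± 18.4 in roots and 6.44 ± 4.17 in leaves (-3.54). Of 3 listed aquaporins, the boron channel NIP6-1 was leaf-biased (1.19) and the plasma membrane aquaporin PIP2-3 root-biased (-1.3), at 110 ± 15.3 FPKM in roots and 43.5 ± 1.17 in leaves. Of 11 jacalin lectins and ER body glucosidases, only JAL23, leaf-biased at 97.5 ± 32.5 against 3.94 ± 0.873 FPKM (4.28), and BGLU21 were listed.

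Of the 17 genes listed by the authors for both organs, 8 kept a leaf bias and 2 kept a root bias. Over all 656 genes these shares were 20.6% and 30.3%, and 50.9% kept a bias in either direction. The change passed the test toward leaf in 1 and toward root in 4, beside 44.2% and 15.2% of all 656 genes. RAP2-3, an ethylene response factor of the oxygen-sensing group, was at 928 ± 42.0 FPKM in spaceflight leaves and 131 ± 39.2 in spaceflight roots, a bias of 2.86 beside 2.47 on the ground. ATL75, a RING finger protein, stood at 41.2 FPKM in each spaceflight leaf to within an SD of 0.0265 and at 14.6 ± 3.48 in roots (1.46, against 1.49). ERF107 (1.11), SKIP20 and AT1G78460 (3.70) kept their leaf bias as well, and the root bias was kept by DREB2A, a factor of drought and heat, at 7.04 ± 2.74 FPKM in roots and 2.38 ± 0.504 in leaves (-1.21), and by the early light-induced protein ELIP1 (-1.5). OXS3, a chromatin-associated protein of stress tolerance, alone of the 17 gained a leaf bias, with 92.6, 144 and 144 FPKM in leaves and 13.5, 19.5 and 9.76 in roots (3.09). With library medians equal, or without ground control plate 1, OXS3 counted as a kept leaf bias. ELIP1 and DREB2A were not called on the ground with library medians equal, and ERF107 was not called in spaceflight without plate 3 or on the ground without ground control plate 2 or 3. ATL8, the clock gene APRR9, MSRB6, ELIP2 and BBX29 were called in neither condition.

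The largest change among genes that gained a bias lay in genes already described and in AT1G25400 and AT2G20670. AT1G25400 was at 54.1, 72.0 and 87.5 FPKM in spaceflight leaves and at 7.64, 10.9 and 5.39 in spaceflight roots, a bias of 3.03 where the ground control bias was 0.06. Each plate had a leaf far above its root. AT2G20670 was at 70.8, 211 and 262 FPKM in spaceflight leaves and at 26.2, 22.6 and 16.6 in spaceflight roots, a bias of 2.82 where the ground control bias was 0.09, with the leaf of plate 1 closest to the roots. On the chromosomes, the listed genes formed 34 neighbouring pairs, and in 12 of them both genes fell in the same class. Of the 107 genes singled out by rule, 15 had an exon overlapped by an annotated gene on the other strand and 3 by one on the same strand, and reads of such partners may not have been told apart because the sources name different library kits.

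**Figure D5:**
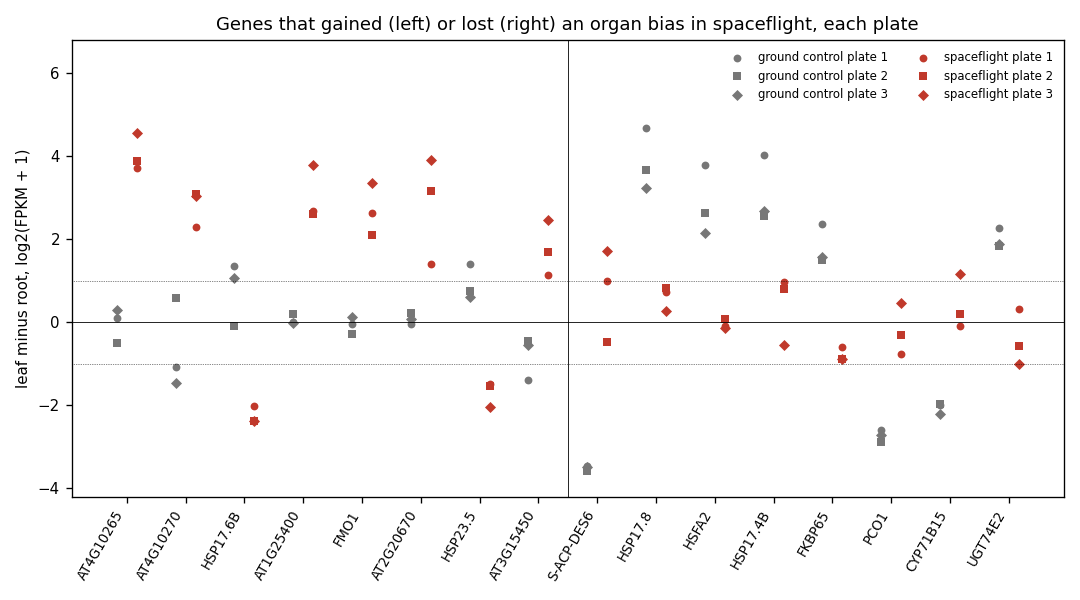
Leaf minus root on the log2(FPKM + 1) scale (vertical axis) in each ground control plate (grey) and each spaceflight plate (red) for the 8 genes that gained and the 8 that lost an organ bias with the largest change, with dotted lines at a 2-fold difference. All 3 spaceflight plates of AT4G10265 lie well above the ground control plates. On this scale HSFA2 and HSP17.8 fall from above the upper dotted line in each ground control plate to below it in each spaceflight plate.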

How the data were processed

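RNA-seq of leaves and roots was deposited as 1 table per organ. According to the study's methods and the labels, the authors used FastQC and Trimmomatic on the reads, STAR to map them to TAIR10 and RSEM to quantify genes, and tested spaceflight against ground control with edgeR. Tool versions were not given in the sources used here. Values were deposited as FPKM of each of the 12 libraries, for the genes past the authors' FDR and 2-fold thresholds only. The table headers do not name the unit, which was taken from the study's methods. The columns of the authors' own comparison (fold change, p-value, FDR and mean CPM) were not used. Depth per library is unknown.

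From the deposited FPKM, log2(FPKM + 1) of the union of both tables was reduced to leaf minus root in each of the 6 plates, which keeps the pair of a plate together (a replicate block), and fitted with limma 3.58.1 in R 4.3.3. P-values were adjusted by Benjamini-Hochberg over 656 genes for the mean in spaceflight, the mean in ground control and the difference of these means. A call needed an adjusted p below 0.05 and a log2 difference of at least 1. In spaceflight, 537 genes had an adjusted p below 0.05 and all 445 genes past 2-fold were among them. The pairing rests on the study's methods, by which both organs were cut from the same plants. Over genes, deviations from the group mean in the leaf and in the root of 1 plate correlated at 0.0385, 0.0863 and -0.0179 for spaceflight and at 0.0778, 0.450 and 0.310 for ground control. The fit was tested on simulated data. The members, the 19 gene lists (332 genes) and the tests were chosen with earlier results of these data known.

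The genes named were the 8 largest differences toward each organ, the reversed genes, the 8 gained and 8 lost genes with the largest change, the genes listed for both organs, up to 4 called members of each list with the largest difference, and tissue markers. Other members named were chosen after their values were seen. Alternatives were another pseudocount (0.1), a minimum mean of 1 FPKM and, added after seeing the data, of 5 FPKM, library medians set equal, no block, spaceflight plates alone and leaving out each plate. Gene positions, overlaps and sequences were read from TAIR10.1, where 654 of the 656 genes have a locus. Python 3.11.15, numpy 2.4.6, pandas 2.3.3 and matplotlib 3.10.9 were used for the rest.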

Additional observations from a re-analysis of the deposited data

Results flagged for a closer look

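The leaf minus root difference differed between spaceflight and ground control plants by the test of the difference itself in 390 of the 656 genes. Among the reversed genes the change on the log2(FPKM + 1) scale was 3.63 in BT2, 3.41 in AT3G10040, 3.27 in LBD41, 2.45 in RFS6, -2.45 in MED37C and -5.77 in CPuORF21, whose value is set by its floor of 0.05 FPKM and by the pseudocount. Among genes that gained a bias, it was 4.1 in AT4G10265, 3.47 in AT4G10270, 2.97 in AT1G25400, 2.77 in FMO1, 2.73 in AT2G20670, 2.57 in AT3G15450, -3.04 in HSP17.6B and -2.62 in HSP23.5. Among genes that lost a bias, it was 4.26 in S-ACP-DES6, 2.53 in PCO1, 2.49 in CYP71B15, -3.26 in HSP17.8, -2.91 in HSFA2, -2.68 in HSP17.4B, -2.60 in FKBP65 and -2.41 in UGT74E2. The genes were listed for a spaceflight effect in the same libraries, so such changes were made likely by the choice of the genes.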

How the results depend on the processing

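No call of a bias or of a change turned to the opposite direction under any alternative. Fitted to the spaceflight plates alone, 445 genes were again called. With a pseudocount of 0.1, 460 were called and 616 of 656 genes stayed in their class, and the change passed in 455 genes. A minimum mean of 1 FPKM removed no gene, and one of 5 FPKM left 572 genes, of which 388 were called in spaceflight. Without the replicate block the same 445 genes were called in spaceflight, the change passed in 376 (277 toward leaf and 99 toward root), and 655 genes stayed in their class. With library medians set equal, 461 genes stayed in their class, 244 were leaf-biased on the ground, 54 lost a leaf bias, 33 lost a root bias, 48 gained a leaf bias and 35 a root bias, 1 was reversed to leaf and 4 to root, and the change was toward leaf in 80 and toward root in 175. Leaving out each plate in turn kept 607 to 648 genes in their class. It gave 2 to 7 genes reversed to leaf (7 without spaceflight plate 1, 2 without plate 3) and 1 to 4 reversed to root (1 without spaceflight plate 2 or 3, 4 without ground control plate 2). The change was toward leaf in 194 to 339 genes and toward root in 71 to 100. For the 107 named genes, 3479 of 3623 values kept their side of the threshold, 95 lost and 49 gained a call, and none reversed. The causes of these shifts were not tested. Without counts, differences of genes at few FPKM cannot be set against counting error.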
